A study of Mus musculus with 41 samples.

Results

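The comparison described here sets the intestinal epithelium of embryos that lack Id2 against that of wild-type embryos at embryonic day 11.5 (E11.5). Its members were chosen by sample label: the 3 Id2KO and the 3 wt libraries of E11.5 cells sorted for EpCAM, 6 of the 41 libraries and 2 of the 15 groups of the series. EpCAM is a surface adhesion protein of epithelial cells. All embryos were of mixed C57BL/6 and CD1 background, and the tissue is labelled small intestine. Each E11.5 replicate is labelled as coming from a single embryo, and 250 cells were sorted per library. Id2KO denotes loss of Id2, but the labels do not name the allele, so neither the deleted part of the gene nor any inserted sequence is known here. Other E11.5 groups are used beside this comparison: Id2KO cells sorted for both EpCAM and an Lgr5-EGFP reporter (n = 3), and EpCAM- mesenchyme of Id2KO and of wt embryos (n = 3 each). E13.5 EpCAM+ cells (n = 4), each from a pool of 6 to 12 embryos, give 1 later level for a few genes.

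Id2 is an inhibitor of differentiation. Id proteins carry a helix-loop-helix but no DNA-binding region, so they pair with basic helix-loop-helix (bHLH) factors, above all the E proteins, and keep them off their DNA motif, the E-box CANNTG. Bone morphogenetic protein (BMP) signals induce Id genes in many tissues. In the early gut tube the epithelium is a dividing layer in which regional identities along the foregut to hindgut axis are being set, and Lgr5, a receptor for R-spondins, later marks the stem cells.

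The 6 EpCAM+ libraries held 31.9 to 36.2 M gene counts (M, mega) and 14947 to 16467 detected genes. Epcam itself was present at 1775, 1754 and 1694 CPM (counts per M gene counts) in Id2KO replicates 1, 2 and 3 and at 1471, 1568 and 1558 CPM in the wt replicates. Throughout, 3 values in a row are the plain CPM of replicates 1, 2 and 3, and a value after ± is the standard error (SE) of a log2 fold change (Id2KO minus wt) or the standard deviation (SD) of a CPM mean over 3 libraries. A gene was called at a Benjamini-Hochberg adjusted p under 0.05 in edgeR's quasi-likelihood F test over all 15153 tested genes, and every adjusted p below comes from that test. The p-values measure the spread between these samples. In bulk libraries, fewer cells of a type and less RNA per cell cannot be told apart. Some libraries stood apart in ways the genotype labels do not give. The summed level of 14 leucocyte markers reached 1146, 1395 and 9.81 CPM in Id2KO replicates 1 to 3, against 1199, 268 and 124 CPM in the wt replicates, and none of the 14 was at 0 in all libraries of a group. The 3 wt libraries, each labelled as 1 embryo, held both the Y-linked Ddx3y (25, 25.8 and 18 CPM) and Xist, the RNA of the inactive X chromosome of females (575, 488 and 251 CPM). Each Id2KO library held 1 of them: Ddx3y was at 0.171, 144 and 129.9 CPM and Xist at 874, 1.48 and 0.581 CPM. Whether each wt library held cells of 1 embryo could not be checked, and the part of these differences in the results was not tested. Named calls were also counted without the 3 libraries with over 100 CPM of the macrophage gene C1qa, and with Xist as a covariate. Those libraries were Id2KO replicates 1 and 2 and wt replicate 1, and the counts are given in the closing section.

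Few genes were called as changed in Id2KO cells. In all, 251 of 15153 tested genes were called, 1.66% of them, 132 higher (0.871%) and 119 lower (0.785%) in Id2KO cells. All 251 had no overlap between the 3 Id2KO and 3 wt libraries, which held for 2763 tested genes in all, 18.2%. Of the called genes 90 rose and 99 fell at least 2-fold, and 35 rose and 59 fell at least 4-fold. The median SE over all tested genes was 0.31 on the log2 scale, and simulated counts of the same 15153 genes returned 19 of 100 genes changed 2-fold and 54 of 100 changed 4-fold, so many changes of that size would go uncalled. The count was 119 with the 6 compared libraries alone, which takes nothing from the Lgr5+ libraries, and 141 with Xist as a covariate. DESeq2 called 798 of 18843 genes, 376 higher and 422 lower. At an unadjusted p under 0.05 in edgeR were 1947 of 15153 genes, 1042 higher and 905 lower. List counts given below at an unadjusted p or by DESeq2 stand against these counts. Without Id2KO replicate 3, or without wt replicate 1, 2 or 3, the number of called genes was 163, 117, 77 and 99 in that order. Of the 66 called genes that the naming rule picked, 20 were called under all 13 alternative settings, among them each of the 6 libraries left out in turn. Among them were Id2, Smoc2, Id3, Osr2, Necab1, Esr1, Gpx2, Nrp1, Tacr3, Rpl29, Amph, Col11a1, Bmp7, Nbl1, Sfrp5, Dusp6, Krt20, Ccnd2 and Slitrk6. The other 46 lost the call under at least 1 setting, 42 of them with a single library left out. Those libraries are named below for the genes reported. Krt15, Col5a2 and H2-Bl kept the call with each library left out. Krt15 lost it with the compared libraries alone (adjusted p = 0.1), and Col5a2 and H2-Bl without the 3 libraries high in C1qa.

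**Figure D1:**
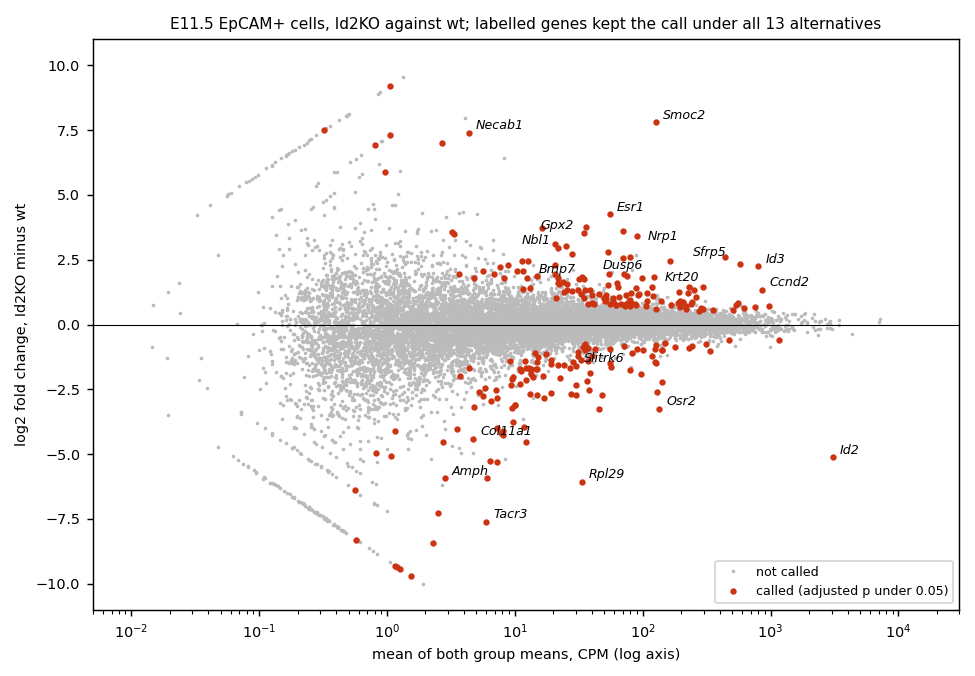
Log2 fold change (vertical axis) against mean CPM (horizontal log axis) for the tested genes of the comparison, leaving out 6 genes at 0 in all 6 libraries. The 251 called genes are red, and 19 of those called under all 13 alternatives carry labels, with Id2 at -5.12 and Smoc2 at 7.80.

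The targeted gene was checked first. Id2 stood at 5308, 5974 and 6600 CPM in wt cells and at 159.8, 159 and 182 CPM in Id2KO cells. All 3 Id2KO libraries lay far below every wt library, with a log2 fold change of -5.12 ± 0.19 and an adjusted p of 1.5e-07. Id2 was also at 132 ± 25.5 CPM in the Id2KO Lgr5+ cells and at 3171 ± 582 CPM (SD, n = 4) in E13.5 EpCAM+ cells. The remaining reads in Id2KO cells cannot be placed within the gene, since the files give 1 count per gene.

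Among the other Id genes, Id3 and Id1 rose and Id4 did not pass the test. Id3 was at 1161, 1226 and 1568 CPM in Id2KO cells against 227, 315 and 309.5 CPM in wt. The lowest Id2KO library held more than the highest wt library by a wide margin, and the log2 fold change was 2.25 ± 0.18 (adjusted p = 6.2e-05). Id1 was at 273, 298 and 432 CPM against 108, 119 and 150.0 CPM, again without overlap, with a log2 fold change of 1.45 ± 0.22 (adjusted p = 0.0079). The Id1 call was lost without wt replicate 2 (adjusted p = 0.062). Id4 was low in both groups, at 2.43, 5.94 and 1.58 CPM against 2.62, 2.22 and 5.15 CPM. The partners of Id proteins did not pass the test. For the E proteins Tcf3, Tcf4 and Tcf12, called in 0 of 3, the log2 fold changes were 0.06 ± 0.28, 0.30 ± 0.18 and 0.26 ± 0.17. Of 8 tested tissue bHLH factors and 4 tested Hes and Hey genes, which repress bHLH targets downstream of Notch, 0 were called, and Hes1 was at 281, 314 and 361 CPM against 269, 288 and 334 CPM. DESeq2 also called 0 of these 3 lists' members, and 1, the circadian repressor Bhlhe40, was higher at an unadjusted p under 0.05 in edgeR.

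**Figure D2:**
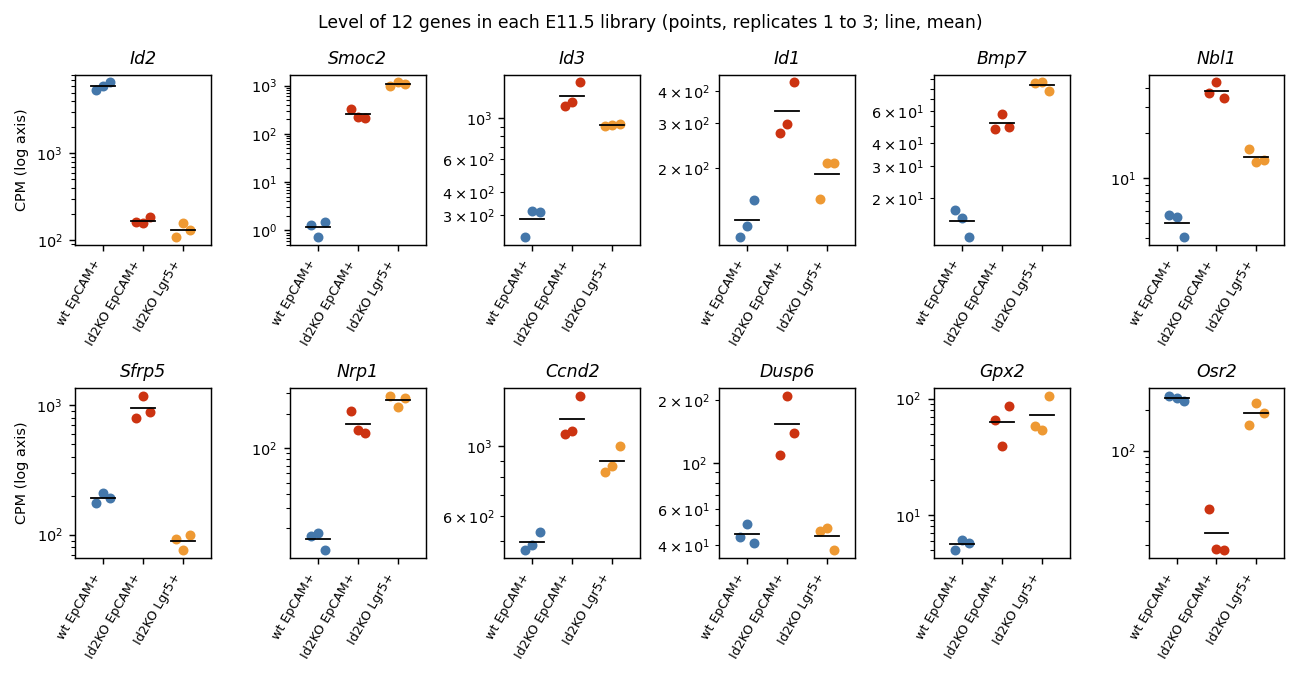
CPM on log axes for 12 genes in the 3 wt EpCAM+, 3 Id2KO EpCAM+ and 3 Id2KO Lgr5+ libraries (points), with the group mean as a line. Smoc2 lies between 0.721 and 1.46 CPM in wt and between 211.1 and 322 CPM in Id2KO EpCAM+ cells, and Osr2 is low in the Id2KO EpCAM+ group alone of these 3.

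Promoters were read for the E-box, the motif that Id proteins keep free, and are shown for Id2 itself, for Id3, for the Wnt inhibitor Sfrp5 and for the retinoic acid hydroxylase Cyp26a1, which are described here and below. Each window runs from 250 bases before to 50 bases after the RefSeq start of the gene on GRCm38.p6, 5′ to 3′ on the gene's strand. Capitals mark CANNTG, or in Cyp26a1 a direct repeat of TGAACT with 5 bases between the copies, which is a form of the element bound by retinoic acid receptors. Id2 lies at chr12:25096043-25096342 on the minus strand, Id3 at chr4:136143572-136143871 on the plus strand, Sfrp5 at chr19:42202203-42202502 on the minus strand and Cyp26a1 at chr19:37697558-37697857 on the plus strand.
Id2: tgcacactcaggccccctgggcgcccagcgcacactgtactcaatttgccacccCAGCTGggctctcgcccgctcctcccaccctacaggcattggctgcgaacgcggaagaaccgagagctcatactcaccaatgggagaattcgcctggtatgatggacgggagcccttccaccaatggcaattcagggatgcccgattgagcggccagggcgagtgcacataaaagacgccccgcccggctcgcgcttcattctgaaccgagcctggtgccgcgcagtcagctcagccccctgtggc
Id3: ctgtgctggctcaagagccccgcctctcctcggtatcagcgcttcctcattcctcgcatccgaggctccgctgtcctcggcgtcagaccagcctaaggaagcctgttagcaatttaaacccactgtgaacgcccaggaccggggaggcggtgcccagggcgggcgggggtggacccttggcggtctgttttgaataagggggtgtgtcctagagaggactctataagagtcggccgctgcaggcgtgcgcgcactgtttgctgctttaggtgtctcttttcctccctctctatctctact
Sfrp5: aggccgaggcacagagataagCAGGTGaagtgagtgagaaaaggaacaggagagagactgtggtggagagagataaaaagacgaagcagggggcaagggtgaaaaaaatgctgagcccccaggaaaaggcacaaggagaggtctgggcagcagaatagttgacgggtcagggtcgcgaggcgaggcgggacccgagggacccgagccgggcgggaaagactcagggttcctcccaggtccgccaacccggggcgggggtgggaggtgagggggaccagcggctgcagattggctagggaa
Cyp26a1: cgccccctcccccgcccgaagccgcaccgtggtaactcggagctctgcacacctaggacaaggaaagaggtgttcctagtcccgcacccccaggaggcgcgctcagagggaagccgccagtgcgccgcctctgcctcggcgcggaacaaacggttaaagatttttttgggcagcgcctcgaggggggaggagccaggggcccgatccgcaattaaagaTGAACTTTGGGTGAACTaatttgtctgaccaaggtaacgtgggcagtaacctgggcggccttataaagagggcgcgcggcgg
The Id2 window held 1 E-box, CAGCTG, and the Sfrp5 window 1 E-box, CAGGTG, and the pattern CANNTG reads the same on both strands. The windows of Id3 and Cyp26a1 held none. E-boxes were no more frequent in windows of called genes than elsewhere: CANNTG was in 61.7% of 120 windows of genes that rose (91 of 132 genes matched), in 61.9% of 105 windows of genes that fell (83 of 119 matched) and in 65.3% of 14034 windows of tested genes. The direct repeat was searched after the Cyp26a1 window had been seen. It was found, on either strand, in 2 of 14034 windows of tested genes (0.0143%) and in 8 of 32851 windows in all (0.0244%). Motif matches describe these windows and are not binding sites.

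BMP signals act through ligands, receptors and secreted inhibitors, and Id1 to Id3 are among their common targets. Of 7 tested ligands 1 rose, Bmp7, and of 9 tested receptors and Smads 0 were called by edgeR, 0 at an unadjusted p under 0.05 and 0 by DESeq2. Bmp7 was at 47.8, 58.3 and 49.5 CPM in Id2KO cells against 17.1, 15.5 and 12.2 CPM in wt, a log2 fold change of 1.84 ± 0.17 (adjusted p = 0.00025). The ligand Bmp2 was at 11.3, 9.12 and 6.19 CPM against 4.98, 4.04 and 3.45 CPM and was not called (adjusted p = 0.1). The receptor Bmpr1a was at 123, 122 and 114 CPM against 124, 104 and 79.98 CPM.

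Of 11 tested BMP inhibitors 2 rose. Smoc2, a secreted matrix protein of the SPARC family and a signature gene of adult Lgr5+ stem cells, went from 1.3, 0.721 and 1.46 CPM in wt to 322, 227 and 211 CPM in Id2KO cells. The groups lay more than 100-fold apart, at a log2 fold change of 7.80 ± 0.30 (adjusted p = 1.5e-07). Smoc2 was higher still in Id2KO Lgr5+ cells, at 957, 1167 and 1100 CPM, and low in E13.5 EpCAM+ cells, at 2.05 ± 0.476 CPM (SD, n = 4). Nbl1, an inhibitor of the DAN family, was at 37, 43.6 and 34.5 CPM against 5.64, 5.48 and 4.04 CPM, a log2 fold change of 2.97 ± 0.24 (adjusted p = 7.3e-05). The classical inhibitor Nog was at 1.66, 0.614 and 0.442 CPM against 5.76, 5.42 and 5.56 CPM, without overlap but not called (adjusted p = 0.18). Twsg1 was also not called, at 116, 206 and 135.22 CPM against 101, 93.4 and 75.2 CPM (adjusted p = 0.076). Of 6 tested BMP targets Id1 and Id3 rose, and the list's median log2 fold change was 0.90, against 0.01 over all tested genes. Msx1 and Msx2, homeobox targets of BMP, had log2 fold changes of 1.13 ± 0.73 and -0.67 ± 0.37 and were not called.

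Wnt genes changed one by one, with list medians of -0.03 for ligands, -0.23 for secreted inhibitors and -0.19 for targets. Sfrp5, a secreted Frizzled-related protein that binds Wnts and marks the anterior gut, was at 792, 1191 and 896 CPM against 176, 209.7 and 193 CPM in wt. It rose in every Id2KO library, with a log2 fold change of 2.35 ± 0.17 (adjusted p = 3.5e-05), and was 89 ± 12.3 CPM in Id2KO Lgr5+ cells, below the wt EpCAM+ level. The related Sfrp2 fell, from 28.1, 22.8 and 17.4 CPM to 8, 5.77 and 6.41 CPM (log2 fold change -1.70 ± 0.28, adjusted p = 0.012). The ligand Wnt5a, which acts mainly without β-catenin, was at 7.43, 6.61 and 5.56 CPM against 22.9, 33.1 and 23.6 CPM and fell by the test (log2 fold change -1.98 ± 0.35, adjusted p = 0.018). Of 14 tested receptors 1 was called, Fzd10, which was at 0.886, 0.976 and 0.885 CPM against 10.7, 10.4 and 4.68 CPM (adjusted p = 0.012).

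Wnt target genes went both ways. Of 17 tested targets, Tcf7l1 (log2 fold change 0.91 ± 0.15) and Sox9 (1.08 ± 0.24) rose, whereas Tnfrsf19 (-2.15 ± 0.41) and Sp5 (-3.09 ± 0.60) fell. Tcf7l1 is a repressor of Wnt targets, Sox9 a factor of gut progenitors, Tnfrsf19 (Troy) a stem cell receptor and Sp5 a transcription factor induced by β-catenin. Sp5 was at 1.86, 0.39 and 3.87 CPM in Id2KO cells and at 17.1, 18.2 and 19 CPM in wt, and at 17.1 ± 1.47 CPM in Id2KO Lgr5+ cells. Of 6 tested genes of the R-spondin axis 0 were called by edgeR; 1, the Wnt receptor ligase Znrf3, was lower at an unadjusted p under 0.05 and called by DESeq2. Lgr5 itself was low in both groups, at 6.95, 2.4 and 7.49 CPM in Id2KO against 10.9, 7.99 and 3.31 CPM in wt cells, with overlap (log2 fold change -0.32 ± 0.46, adjusted p = 0.84). In the cells sorted for the Lgr5-EGFP reporter it was 104 ± 25.9 CPM. Of the 4 called targets 1 was called without the 3 libraries high in C1qa, 1 with Xist as a covariate and 0 with the compared libraries alone. Apart from Sfrp5, the Wnt calls depended on single libraries. Those of Sfrp2 and Fzd10 were lost without wt replicate 1 or 2 (adjusted p = 0.053 to 0.075), and that of Tcf7l1 without any wt library (0.056 to 0.077). Wnt5a was lost without wt replicate 2 or 3 or Id2KO replicate 3 (0.062 to 0.095), and Tnfrsf19 and Sp5 without any wt library or Id2KO replicate 1 (0.067 to 0.097). Sox9 was lost without any library but Id2KO replicate 1 (0.071 to 0.2).

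Fibroblast growth factor (FGF) feedback genes, are switched on by FGF and ERK signals and damp them. Of 8 tested, Dusp6 and Spred1 rose, 1 of them with the compared libraries alone. The list's median was 0.89, and the sign was positive for all 8, against 7708 of all 15153 tested genes. Dusp6, the phosphatase of ERK, was at 109, 211 and 139 CPM against 44.1, 50.7 and 40.9 CPM in wt. It rose by 1.79 ± 0.22 on the log2 scale (adjusted p = 0.0019), and its level in Id2KO Lgr5+ cells, 44.5 ± 5.9 CPM, was that of wt EpCAM+ cells. Spred1, a Ras pathway inhibitor, was at 41.3, 46.2 and 51.4 CPM against 30.3, 21.8 and 19.2 CPM (adjusted p = 0.028), and this call was lost without Id2KO replicate 3 or wt replicate 2 or 3 (adjusted p = 0.097 to 0.15). The Ets factor Etv4 just missed the threshold at 26.4, 60.7 and 31.4 CPM against 16.4, 11.1 and 8.31 CPM (adjusted p = 0.051). Of 10 tested FGF ligands and receptors edgeR called 0, with 1 at an unadjusted p under 0.05 and 1 called by DESeq2, and Fgf9 was at 43.7, 49 and 62.3 CPM against 30.3, 33.7 and 25 CPM (adjusted p = 0.11).

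Of 11 tested Hedgehog genes 0 were called. The median log2 fold change was -0.98 and 9 had a negative sign, against 7439 of all 15153 tested genes. At an unadjusted p under 0.05 in edgeR 6 were lower, against 905 of all 15153. DESeq2 called 4 of 13 lower, against 422 of 18843. Gli3, a transcription factor of the pathway, was at 15.5, 8.56 and 16.9 CPM against 25.1, 32.6 and 26.1 CPM (adjusted p = 0.12), and the groups did not overlap. Gli3 was higher in mesenchyme, at 137, 109.7 and 145 CPM for Id2KO against 94.1, 76.5 and 75.3 CPM for wt, as were Gas1 (43.9 ± 3.86 CPM in wt mesenchyme against 11.9, 13 and 11.5 CPM in wt EpCAM+ cells) and most values of Boc. The 15 tested mesenchyme markers had a median of -1.10 in the same EpCAM+ comparison, and their part in it was not tested. Of 14 tested Notch genes 1 rose, the ligand Dll1, at 11.4, 11.4 and 9.54 CPM against 2.45, 2.29 and 3.86 CPM (log2 fold change 1.94 ± 0.38, adjusted p = 0.028). Neither without the 3 libraries high in C1qa, nor with Xist as a covariate, nor with the compared libraries alone was Dll1 called. Among single libraries the call was lost without wt replicate 1 or 2 or Id2KO replicate 1 or 3 (adjusted p = 0.056 to 0.15).

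Retinoic acid patterns the gut tube along its length and is broken down by Cyp26 enzymes. Cyp26a1, whose promoter carries the direct repeat shown above, was the only 1 of 15 tested genes of this list that was called. It was at 0.429, 0.112 and 0.387 CPM in Id2KO cells against 14.4, 14.3 and 8.98 CPM in wt, with a log2 fold change of -5.26 ± 1.04 (adjusted p = 0.028). Cyp26a1 was near 0 in Id2KO Lgr5+ cells too, at 0, 0.23 and 0 CPM. Its call was lost without any library but Id2KO replicate 2 (adjusted p = 0.068 to 0.14). Other genes of the pathway had smaller differences with no overlap that were not called: the receptor Rarb at 69.8, 74.6 and 60.7 CPM against 106, 132 and 99.8 CPM (adjusted p = 0.055), and the retinoic acid carrier Crabp2 at 104, 48.4 and 124 CPM against 189, 242 and 217 CPM (0.094).

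Regional genes of the small intestine were called in opposite directions by region. Of 7 tested distal genes 0 rose and 3 fell, with a list median of -1.49, and of 11 tested proximal genes 2 rose and 0 fell, with a median of 0.31. Osr2, 1 of the 3 that fell, was a gene given for this comparison. The lists were chosen with earlier results of these data known, so these counts are no independent test of a pattern by region. Osr2, an odd-skipped transcription factor, was at 37.1, 18.6 and 18.2 CPM in Id2KO cells against 255, 243 and 231 CPM in wt. Every Id2KO library was far below the wt range, with a log2 fold change of -3.25 ± 0.28 (adjusted p = 0.00016). In Id2KO Lgr5+ cells Osr2 was at 155, 225 and 189.9 CPM, closer to wt EpCAM+ than to Id2KO EpCAM+ cells, and in E13.5 EpCAM+ cells at 63.3 ± 7.94 CPM (SD, n = 4). Bex4, of the brain-expressed X-linked family, was at 221, 209 and 215 CPM against 405, 449 and 507 CPM (log2 fold change -1.04 ± 0.17, adjusted p = 0.011). Cubn, a receptor of the distal gut for vitamin B12 uptake, lay without overlap at 6.6, 4.71 and 12.9 CPM against 28.6, 20.9 and 25.2 CPM and was not called (adjusted p = 0.053).

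On the proximal side, Onecut2, a factor of duodenal epithelium, was at 395, 354 and 550.2 CPM against 148, 173 and 168 CPM (log2 fold change 1.45 ± 0.26, adjusted p = 0.018). Gata4, which marks proximal intestine, was at 87.5, 108 and 114 CPM against 57.8, 58.3 and 64.2 CPM (0.82 ± 0.17, adjusted p = 0.037). Pdx1, the factor of duodenum and pancreas, varied among Id2KO libraries, at 2.94, 42.4 and 23.7 CPM against 3.11, 4.14 and 6.67 CPM, and was not called (adjusted p = 0.19). Fabp1, also on the proximal list, was lower without overlap, at 25, 9.82 and 26.9 CPM against 34.8, 54.6 and 61.7 CPM. It was not called by edgeR (adjusted p = 0.19). DESeq2 called 5 proximal genes higher and 1, Fabp1, lower. With Xist as a covariate the median of the proximal list was -0.07. Of 13 tested foregut and stomach genes Sfrp5 and Krt15 rose and 0 fell, while DESeq2 called 2 higher and 2 lower. Foxp2 was lower without overlap, at 7.06, 8.23 and 9.73 CPM against 20.6, 21.9 and 14.2 CPM, and not called (adjusted p = 0.051). The same held for Irx2, at 1.54, 1.14 and 0.774 CPM against 8.64, 2.1 and 10.8 CPM (0.055). Krt15, a keratin of stratified epithelium, was low throughout, at 2.37, 2.04 and 1.33 CPM against 0.0576, 0 and 0.0293 CPM, and at 13.1 ± 3.09 CPM in Id2KO Lgr5+ cells. Nkx6-2, a homeobox factor expressed in stomach but not on this list, rose from 3.23, 4.01 and 5.91 CPM to 9.32, 45.4 and 56 CPM (log2 fold change 3.09 ± 0.65, adjusted p = 0.038). It was at 0.0577 ± 0.0758 CPM in Id2KO Lgr5+ cells. Of 21 tested Hox genes, whose median was 0.04, and of 15 tested liver and pancreas genes edgeR called 0. In each list 3 were at an unadjusted p under 0.05, against 1947 of all 15153 tested genes, and DESeq2 called 1, against 798 of 18843. Without the 3 libraries high in C1qa 1 distal gene fell and 1 proximal gene rose, with Xist as a covariate 2 and 0, and with the compared libraries alone 2 and 1. Several of these calls rested on single libraries. Bex4 was lost without wt replicate 2 or 3 (adjusted p = 0.055 to 0.057), Onecut2 without any wt library or Id2KO replicate 3 (0.059 to 0.091), and Gata4 and Nkx6-2 without any library but Id2KO replicate 1 (0.051 to 0.18).

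**Figure D3:**
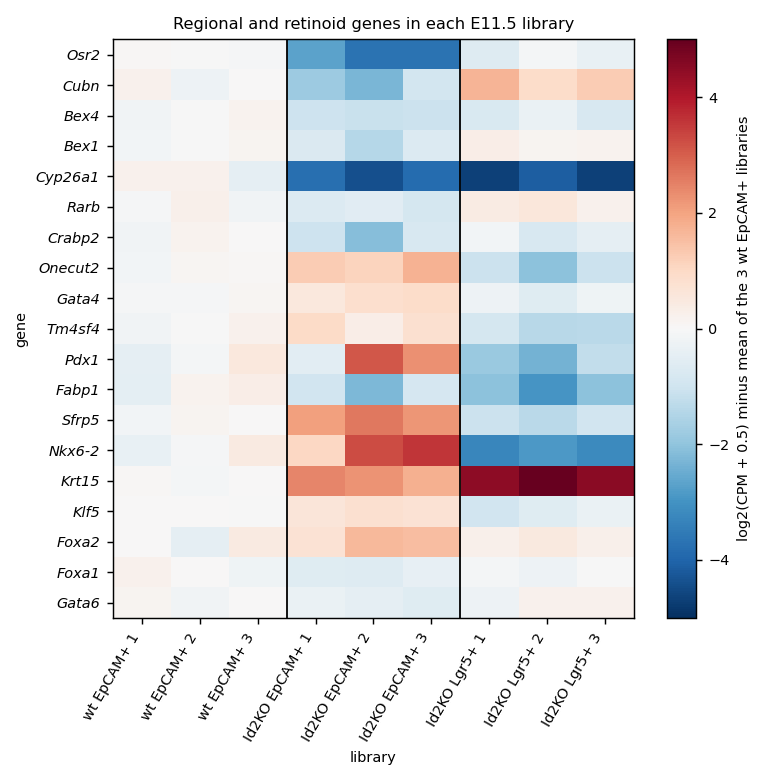
Log2(CPM + 0.5) minus the mean of the 3 wt EpCAM+ libraries for 19 regional and retinoid genes (rows) in 9 libraries (columns), with colours limited to 5 log2 units either way. Osr2 and Cyp26a1 are blue in all 3 Id2KO EpCAM+ libraries, Sfrp5 and Onecut2 are red, and Osr2 is near white in the Id2KO Lgr5+ libraries.

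The endodermal and epithelial programme was present in both genotypes. Of 15 tested endoderm and pan-intestinal factors 3 rose and 0 fell, but 7 had a positive and 8 a negative sign, with a median of -0.10. DESeq2 called 4 higher and 1 lower. Foxa1, at 186, 183 and 212 CPM against 328, 286 and 246 CPM, was lower without overlap and not called by edgeR (adjusted p = 0.099). So was Gata6, at 55.2, 50 and 44.8 CPM against 75.7, 61.8 and 70.9 CPM (0.34). The pioneer factor Foxa2 was at 32.7, 60.9 and 58.1 CPM against 19.8, 14.2 and 26.8 CPM (log2 fold change 1.35 ± 0.29, adjusted p = 0.043), and Klf5 at 191, 216 and 209 CPM against 126, 126 and 123 CPM (0.76 ± 0.16, adjusted p = 0.037). Of 20 tested junction proteins and keratins 4 rose and 0 fell, all by less than 2-fold: Krt8 (log2 fold change 0.72 ± 0.14), Krt19 (0.84 ± 0.16), Cldn7 (0.55 ± 0.11) and the laminin receptor Itga6 (0.93 ± 0.19). Without the 3 libraries high in C1qa 1 endoderm factor and 2 junction or keratin genes rose, with Xist as a covariate 0 of either, and with the compared libraries alone 1 and 0. Each of the calls named here was lost without 3 to 5 of the 6 libraries. Krt8 was lost without wt replicate 1 or 2 or Id2KO replicate 3 (adjusted p = 0.096 to 0.14). Krt19 was lost without those or Id2KO replicate 1 (0.066 to 0.15), and Foxa2 without wt replicate 1 or 2 or Id2KO replicate 2 or 3 (0.073 to 0.19). Klf5 and Cldn7 were lost without any library but Id2KO replicate 2 (0.071 to 0.17). Itga6 was lost without wt replicate 1 or 3 or Id2KO replicate 1 or 3 (0.069 to 0.13).

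Genes of differentiated cells were raised in part. Krt20, the keratin of differentiated enterocytes, was at 131, 245 and 191 CPM against 56, 49.1 and 58.5 CPM, a log2 fold change of 1.82 ± 0.26 (adjusted p = 0.005). Anpep, a peptidase of the brush border, was at 179, 74.3 and 104 CPM against 28.3, 19.3 and 15.7 CPM (2.56 ± 0.39, adjusted p = 0.0079). They were the 2 risers among 11 tested enterocyte genes, of which 0 fell. At an unadjusted p under 0.05 in edgeR 5 of the list were higher and 2 lower, against 1042 and 905 of all 15153 tested genes. Rbp2 was lower without overlap, at 24.4, 8.9 and 22 CPM against 36.3, 40.2 and 40.7 CPM, and not called (adjusted p = 0.24). Gpx2, a gut glutathione peroxidase, was at 64.8, 39.1 and 86 CPM against 4.95, 6.05 and 5.76 CPM. It was among the 12 largest rises, with a log2 fold change of 3.55 ± 0.35 (adjusted p = 0.0005). Among 16 tested secretory genes 2 rose, Dll1 and Agr2, a protein disulphide isomerase of mucous cells at 58.5, 47.7 and 38.3 CPM against 6.02, 1.82 and 14.2 CPM (adjusted p = 0.041). The secretory count was 0 without the 3 libraries high in C1qa, with Xist as a covariate and with the compared libraries alone. Agr2 was lost without any library but wt replicate 3 (0.057 to 0.15), and Anpep without wt replicate 2 or 3 (0.057 to 0.062).

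Stem cell genes as a list did not move one way. Of 23 tested genes of the adult stem cell signature, Smoc2 and Sox9 rose, Tnfrsf19 fell and the median was 0.08. Without the 3 libraries high in C1qa, with Xist as a covariate or with the compared libraries alone 1 rose and 0 fell. Rgmb, a co-receptor for BMP, was at 14.5, 23.1 and 33 CPM against 12.8, 10.03 and 9.62 CPM, and Igfbp4 at 206, 294 and 169 CPM against 187, 165 and 132 CPM; neither was called (adjusted p = 0.17 and 0.26). Of 11 tested genes of fetal epithelium and spheroids edgeR called 0, with a median of 0.32, 3 at an unadjusted p under 0.05 and 2 called by DESeq2.

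Cell cycle genes held the most calls of any list, but theirs was also the list with the most tested genes. Shorter lists held larger shares, as with 3 of 7 distal genes, and over all tested genes 1.66% were called. Of 28 tested genes of replication and mitosis 5 rose and 0 fell, and the median was 0.28. At an unadjusted p under 0.05 in edgeR 12 were higher, against 1042 of all 15153 tested genes. Ccnd2, cyclin D2, which drives entry into S phase, was at 1090, 1113 and 1447 CPM against 466, 486 and 534 CPM, more than 2-fold higher at a log2 fold change of 1.34 ± 0.15 (adjusted p = 0.0013). The others rose less: the topoisomerase Top2a by 0.88 ± 0.16, the mitotic kinase Cdk1 by 0.62 ± 0.13, and the anaphase activator Cdc20 by 0.68 ± 0.13 on the log2 scale. Plk1, another mitotic kinase, was at 81.5, 117 and 134 CPM against 67.6, 41.9 and 40.5 CPM. Top2a was at 250.4, 323 and 363 CPM against 196, 187 and 142 CPM. The count of rises was 1 with Xist as a covariate and 1 with the compared libraries alone. Without the 3 libraries high in C1qa, which leaves 1 Id2KO library, the list median was 0.36. Without any wt library or Id2KO replicate 3 the Top2a call was lost (0.053 to 0.088), without those or Id2KO replicate 1 the Cdc20 and Cdk1 calls (0.051 to 0.19), and without wt replicate 2 or 3 or Id2KO replicate 3 that of Plk1 (0.11 to 0.17). Of 10 tested cell cycle inhibitors and Rb family genes 0 were called by edgeR or DESeq2 and 0 were at an unadjusted p under 0.05.

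**Figure D4:**
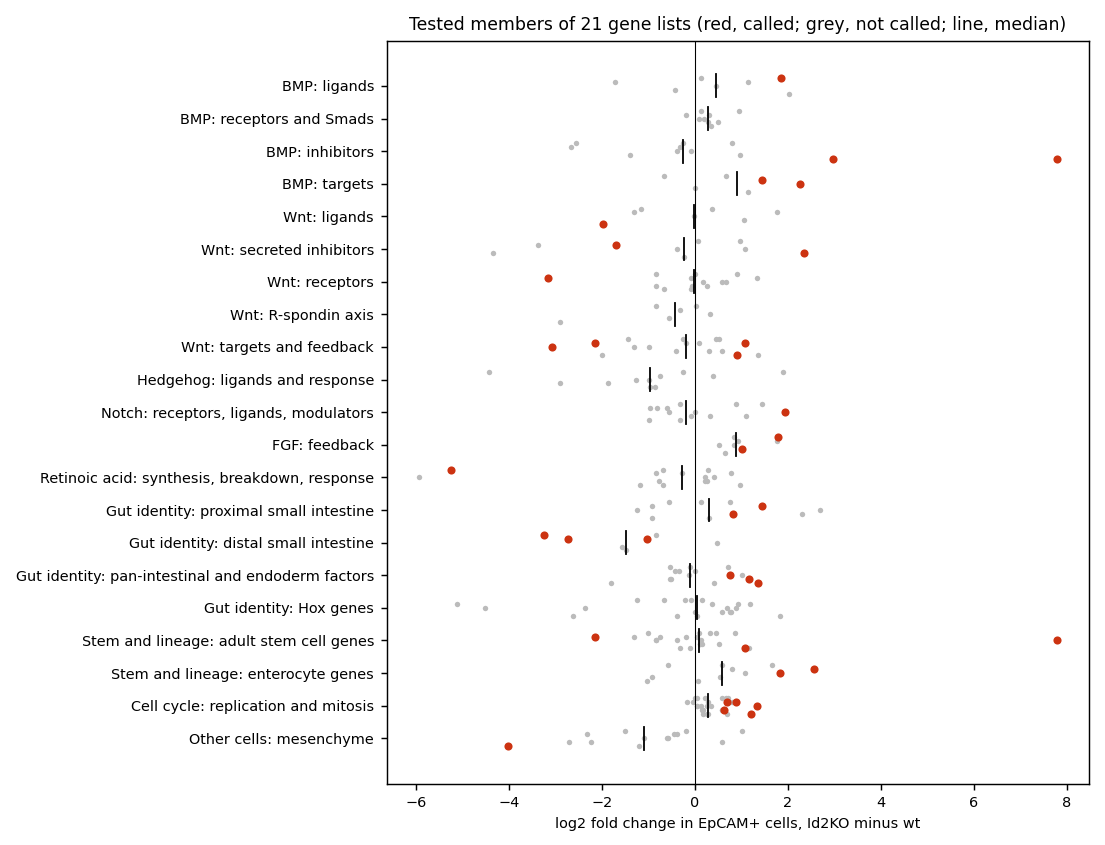
Log2 fold changes in EpCAM+ cells (horizontal axis) of the tested members of 21 gene lists (rows), with called members in red and the list median as a line. The medians furthest from 0 are those of distal intestine (-1.49), mesenchyme (-1.10), Hedgehog (-0.98), BMP targets (0.90) and FGF feedback (0.89). Those of the other lists lie between -0.44 (R-spondin axis) and 0.58 (enterocyte genes).

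The other large rises came from genes of unlike roles. Nrp1, a co-receptor for semaphorins and vascular growth factors, was at 163 ± 41.4 CPM (mean ± SD, n = 3) against 17.2, 18 and 12.8 CPM and at 287, 229.9 and 275 CPM in Id2KO Lgr5+ cells. It rose in all 3 libraries, with a log2 fold change of 3.40 ± 0.22 (adjusted p = 1.3e-05). Reads assigned to Esr1, the oestrogen receptor α, were at 82.2, 133 and 99.9 CPM against 4.95, 6.58 and 5.41 CPM (log2 fold change 4.25 ± 0.27, adjusted p = 1.3e-05). The files do not show which part of Esr1 the reads covered, and gene counts cannot tell reads of the endogenous gene from reads of an inserted sequence that holds part of it. Necab1, a neuronal calcium-binding protein, was at 12, 2.96 and 11.1 CPM against 0, 0.0313 and 0.117 CPM. Its fitted log2 fold change, 7.40 ± 0.89, depends on values near 0 in wt. The muscle actins Acta1, at 151, 29.3 and 20.6 CPM against 6.02, 6.61 and 2.93 CPM, and Actc1, at 61.7, 19.3 and 9.37 CPM against 1.56, 3.63 and 1.84 CPM, also rose, and both were highest in Id2KO replicate 1. Lower in level were Amn, the membrane partner of Cubn, at 8.46, 3.99 and 3.65 CPM against 0.0576, 0.0627 and 0 CPM, the milk-clotting protease Cym at 9.29, 2.31 and 6.05 CPM against 0.518, 0.564 and 0.468 CPM, and the inflammatory caspase Casp4 at 11.1, 3.21 and 4.15 CPM against 0.518, 0.846 and 0.322 CPM. The Amn call was lost without wt replicate 2 (adjusted p = 0.059), that of Cym without any wt library (0.067 to 0.088), and those of Acta1, Actc1 and Casp4 without any wt library or 1 Id2KO library, replicate 2 for Acta1 and replicate 1 for the others (0.062 to 0.2).

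The largest falls besides Id2 were of genes near 0 in Id2KO cells. Tacr3, the neurokinin B receptor, was at 0, 0.167 and 0 CPM against 9.33, 13.6 and 12.5 CPM in wt and at 6.24, 13.7 and 13.3 CPM in Id2KO Lgr5+ cells. Amph, amphiphysin, which acts in endocytosis, was at 0.143, 0.0837 and 0.0276 CPM against 8.32, 3.51 and 4.91 CPM, and Dcc, the netrin receptor, at 0, 0.502 and 0.0553 CPM against 19.1, 10.3 and 6.03 CPM. Adamts16, a secreted metalloprotease, was at 1.74, 0.586 and 0 CPM against 21, 14.9 and 10.6 CPM and reached 23.3 ± 5.23 CPM in Id2KO Lgr5+ cells. The class I histocompatibility gene H2-Bl, whose close relatives make its counts uncertain, was at 0.857, 0.53 and 0.995 CPM against 12.6, 13.7 and 18 CPM, and the transporter gene Mfsd7c at 0, 0 and 0.0829 CPM against 7.14, 4.29 and 3.63 CPM. The adjusted p-values were 0.0017 for Tacr3, 0.0035 for Amph, 0.033 for Dcc, 0.043 for Adamts16, 0.0051 for H2-Bl and 0.024 for Mfsd7c. Dcc was lost without any library but Id2KO replicate 2, Adamts16 without any wt library or Id2KO replicate 2, and Mfsd7c without any wt library or Id2KO replicate 1 (adjusted p = 0.056 to 0.16).

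Collagens and other genes that mesenchyme expresses also fell in EpCAM+ cells. Col5a2 was at 0.229, 0.223 and 0.194 CPM against 5.79, 6.3 and 3.69 CPM, Col11a1 at 0.514, 0.558 and 0.138 CPM against 8.87, 11.2 and 6.82 CPM, and the proteoglycan Dcn at 0.143, 0.837 and 0.221 CPM against 9.27, 6.17 and 4.68 CPM. The opioid precursor Penk was at 0.829, 2.15 and 0.0553 CPM against 15.8, 35 and 19.7 CPM. Their log2 fold changes were -4.54 ± 0.64 for Col5a2 (adjusted p = 0.0049), -4.42 ± 0.59 for Col11a1 (0.0035), -4.03 ± 0.76 for Dcn (0.024) and -4.52 ± 0.97 for Penk (0.043). Col5a2, Col11a1 and Dcn were higher in every mesenchyme library than in any EpCAM+ library, with Col5a2 at 159, 155 and 198 CPM for Id2KO against 153, 112 and 134 CPM for wt, whereas Penk overlapped between wt mesenchyme, at 40.6, 56.3 and 25.3 CPM, and wt EpCAM+ cells. The summed level of 19 mesenchyme markers was 202.3 to 303 CPM in the Id2KO EpCAM+ libraries and 418 to 473 CPM in the wt EpCAM+ libraries, against 2499 to 4241 CPM in the mesenchyme libraries. Of the 15 tested markers 1 fell (Dcn) and 0 rose, with a median of -1.10, and in Id2KO EpCAM+ cells Prrx1 and Nkx3-2 were at 0 in all 3 libraries, in wt Barx1. The part of mesenchymal RNA in these falls, and in those of Wnt5a, Sfrp2 and Plagl1, was not tested. The Dcn call was lost without any library but Id2KO replicate 2 and that of Penk without any wt library or Id2KO replicate 1 (adjusted p = 0.062 to 0.17).

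Among the remaining lists, Fos, an immediate early gene, was the only 1 of 16 stress genes called, at 566, 724 and 712 CPM against 436, 409 and 382 CPM (adjusted p = 0.018). Plagl1, an imprinted zinc finger gene, was the only 1 of 14 imprinted growth genes called, at 3.74, 6.42 and 6.97 CPM against 18.8, 21.7 and 15.7 CPM (adjusted p = 0.012). Gpm6a, on the mesothelium list with Krt19, was at 33.5, 34.6 and 29.7 CPM against 7.69, 7.24 and 17.8 CPM (adjusted p = 0.048), whereas the mesothelial factor Wt1 was at 0, 0.0558 and 0 CPM against 0.72, 2.85 and 0.936 CPM and was not called. Of 14 tested leucocyte, 7 enteric nervous system, 6 endothelial and 5 red cell markers edgeR called 0, with 1, 0, 1 and 3 at an unadjusted p under 0.05 in that order, and DESeq2 called 1 endothelial marker. Plagl1 was lost without wt replicate 2 (0.065), Fos without any wt library or Id2KO replicate 3 (0.056 to 0.1), and Gpm6a without any library but wt replicate 3 (0.068 to 0.2).

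Whether the epithelial changes also occurred in the mesenchyme of the same stage was asked in a fit of 12 libraries. In mesenchyme 9 genes rose and 101 fell of 15680 tested (0.0574% and 0.644%, together 0.702%). Of the 251 genes called in EpCAM+ cells 18 were called there too, 7.17% of the epithelial and 16.4% of the 110 mesenchymal calls, and 14 of the 18 in the same direction. Id2 itself fell in mesenchyme from 2180, 2636 and 2760 CPM to 114, 139.9 and 172 CPM (log2 fold change -4.52 ± 0.20, adjusted p = 3.2e-08). The summed level of 12 red cell genes was 24775 to 59658 CPM in mesenchyme of Id2KO embryos against 222305 to 269169 CPM in that of wt embryos, which lowers the plain CPM of every other gene in wt mesenchyme; the fold changes are TMM-scaled. Reads of Esr1 were at 82, 134.78 and 137 CPM in Id2KO mesenchyme against 0.084, 0.287 and 0.223 CPM in wt. Of the next genes Rpl3, Hspa8, Abhd14b and Hmgn2 lie outside the naming rule and were taken, after their values were seen, from the 18 called in both. The ribosomal protein genes Rpl29 and Rpl3 fell in both tissues. Rpl29 was at 0.857, 1.03 and 0.968 CPM in Id2KO EpCAM+ cells and 0.946, 0.77 and 1.65 CPM in Id2KO mesenchyme, against 55.5, 67 and 74.2 CPM and 47.8, 52.2 and 47.1 CPM in wt. Rpl3 was at 6.46, 9.62 and 8.79 CPM in Id2KO against 80.2, 79.1 and 86.9 CPM in wt EpCAM+ cells. Both genes have near-identical copies elsewhere in the genome, which makes their counts uncertain. Others that fell in both were the chaperone Hspa8 (log2 fold change -0.92 ± 0.12 in EpCAM+ cells and -1.26 ± 0.16 in mesenchyme) and Abhd14b (-2.62 ± 0.51 and -4.16 ± 0.82). The nucleosome-binding protein Hmgn2 rose in both (0.84 ± 0.13 and 1.08 ± 0.17).

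The difference between the epithelial and mesenchymal effects was tested as an interaction. It was called for 93 of 15680 genes (0.593%), 66 with a more positive (0.421%) and 27 with a more negative (0.172%) effect in epithelium, and 39 of the 93 were also called in EpCAM+ cells. Without Id2KO EpCAM+ replicate 2 the count was 142, and with a block for tissue pairs of equal number within each genotype it was 82, of which 69 were among the 93. The term of smallest p among the named genes was that of Smoc2, which in mesenchyme was at 129, 219 and 166 CPM for Id2KO against 82.3, 83.9 and 64.4 CPM for wt (log2 fold change 0.78 ± 0.25, adjusted p = 0.29). The epithelial effect exceeded the mesenchymal one by 7.02 ± 0.40 on the log2 scale (adjusted p = 1.9e-06). Nrp1 was likewise changed in epithelium and not called in mesenchyme, where it was at 153, 126 and 139 CPM against 96.3, 102 and 122 CPM (difference of effects 3.37 ± 0.29, adjusted p = 0.00011). For Id3 the difference was 2.25 ± 0.25 (adjusted p = 0.00082), with 1186, 1231 and 1277 CPM in Id2KO mesenchyme against 811, 979 and 1093 CPM in wt and a fitted mesenchymal log2 fold change of -0.00 ± 0.18. The ectonucleotidase gene Enpp3 changed in opposite directions. It rose in EpCAM+ cells from 24.3, 33.7 and 27.1 CPM to 97.2, 51.4 and 86.9 CPM and fell in mesenchyme from 2.97, 5.73 and 3.02 CPM to 0.221, 0.154 and 0.0885 CPM (difference 6.53 ± 0.58, adjusted p = 0.00012). The epithelial call of Enpp3 was lost without any library but Id2KO replicate 2 (adjusted p = 0.081 to 0.13). Slitrk6, a neurite outgrowth membrane protein, fell in EpCAM+ cells from 44.8, 47 and 45.5 CPM to 15.6, 13.8 and 14.8 CPM (adjusted p = 0.0015) and was at 157, 130 and 142 CPM against 77.5, 71.2 and 77.4 CPM in mesenchyme (difference -2.16 ± 0.22, adjusted p = 0.0005). Gclm, a subunit of the enzyme of glutathione synthesis, fell in mesenchyme from 205, 168 and 159 CPM to 38.6, 52 and 55.4 CPM and was not called in EpCAM+ cells, at 38.4, 37 and 43.4 CPM against 31.2, 27.1 and 35.8 CPM (difference 2.60 ± 0.27, adjusted p = 0.0005). For Osr2 the difference, -3.50 ± 0.92, was not called (adjusted p = 0.19), as Osr2 was near 0 in both mesenchyme groups.

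**Figure D5:**
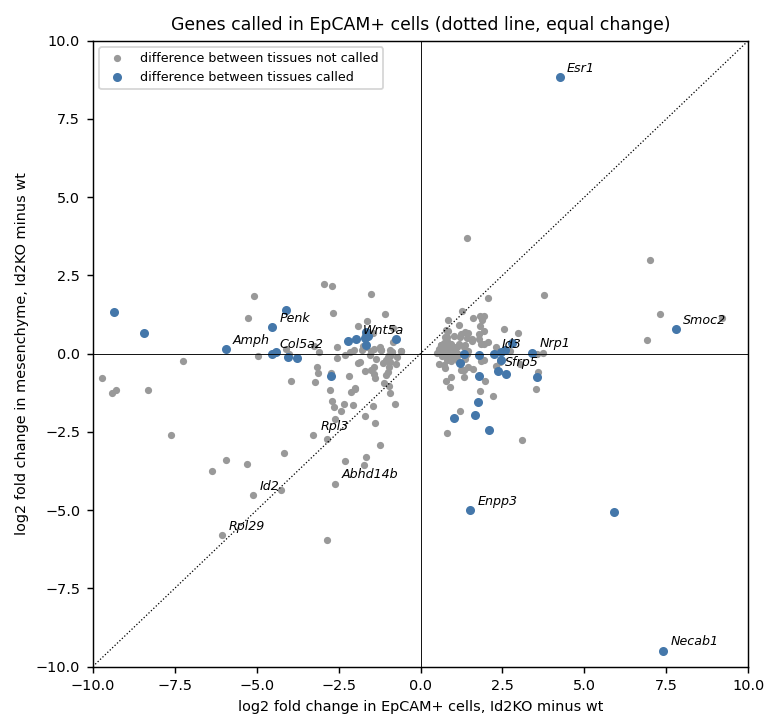
Log2 fold change in mesenchyme (vertical axis) against that in EpCAM+ cells (horizontal axis) for 250 of the 251 genes called in EpCAM+ cells that were tested in both fits. Blue points have a called difference between tissues. Id2 and Rpl29 lie near the line of equal change, and Smoc2, Id3, Nrp1 and Sfrp5 lie near the horizontal zero line.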

How the data were processed

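Deposited values are raw read counts per gene symbol, 1 file a library, made by the authors; per the submitters' processing notes the build was mm9 and the tools, listed with no roles, were HTSeq 0.6.1p1, DESeq2 1.6.3, bcl2fastq 1.8.4, SAMtools 1.2 and STAR 2.3.1z13. Gene annotation and the strand setting are not given in the sources used here, so antisense, overlapping and near-identical genes cannot be told apart. RNA was amplified by 15 PCR cycles and read as 50-base single ends per the labels, without molecular identifiers. The SE of a log2 fold change comes from the spread between libraries.

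From the 23366 symbols in each file the 5 HTSeq category entries were removed. Groups came from the labels. The members and the gene lists were chosen with earlier results of these data known. Levels are counts per M gene counts (CPM). Comparisons used R 4.3.3 with edgeR 4.0.16 (limma 3.58.1): filterByExpr, TMM scaling and the robust quasi-likelihood F test, with Benjamini-Hochberg adjustment over all 15153 tested genes, called at an adjusted p under 0.05. The fit held 9 libraries. The Id2KO Lgr5+EpCAM+ libraries were not compared, but they entered the estimate of spread, the TMM scaling and the filter that decides which genes are tested. With the compared libraries alone 14516 genes were tested. Mesenchyme and the difference between tissues came from 1 fit of 12 libraries.

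Named genes were Id2, Smoc2, Id3, Osr2 and Lgr5; among called genes the 12 that rose most and the 12 that fell most, with at least 5 CPM in the higher group without overlap, unnamed gene models left out; all called members of each list and up to 3 uncalled ones by smallest p; and the 4 interaction terms of smallest p in each direction. Genes outside this rule are said to be so where they appear. In counts simulated for 15153 genes from the EpCAM+ libraries, 19 of 100 genes changed 2-fold and 54 of 100 changed 4-fold were recovered, with 3 false calls. The alternatives were RLE size factors, DESeq2 1.42.0, a block for the replicate number, no filter on low counts, each library left out, the compared groups alone, removal of libraries over 100 CPM of C1qa, and Xist as a covariate; the block numbered within genotype was added after the data were seen. Same-numbered libraries of the compared groups did not deviate together (correlations 0.11, -0.07 and 0.38), so the numbers were not taken as pairs. Between EpCAM+ cells and mesenchyme of equal number they were 0.21, 0.35 and 0.12 in Id2KO and 0.11, -0.01 and -0.05 in wt, and Ddx3y followed the number across the Id2KO sorts. The fits treated all libraries as separate embryos, and the block numbered within genotype drops that for the tissue comparison. No replicate libraries were identical. Promoter letters were read from a RefSeq table of another build than the counts. Adult libraries were not used here, and a few genes that the rule picks are not reported here.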

Additional observations from a re-analysis of the deposited data

Results flagged for a closer look

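For 27 genes picked by the naming rule the genotype effect in EpCAM+ cells differed from that in mesenchyme by a test of the difference itself (edgeR quasi-likelihood interaction term, adjusted p under 0.05 over all 15680 genes). The rule itself picks the 4 terms of smallest p in each direction of this test, so the 27 are no result about the named genes. Over all 15680 genes the difference was called for 93 (0.593%). Values below are that difference on the log2 scale ± SE, positive where the Id2KO effect was the more positive in epithelium. The 2 cell fractions came from separate sorts, and the difference covers sorting as well as tissue.

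Among genes of signalling, the BMP inhibitor Smoc2 differed by 7.02 ± 0.40, Id3 by 2.25 ± 0.25, the Wnt inhibitor Sfrp5 by 2.91 ± 0.33, the co-receptor Nrp1 by 3.37 ± 0.29, the ERK phosphatase Dusp6 by 1.84 ± 0.33 and the cyclin Ccnd2 by 1.33 ± 0.23. For Smoc2, mesenchyme held 129, 219 and 166 CPM in Id2KO against 82.3, 83.9 and 64.4 CPM in wt libraries. In the other direction the ligand Wnt5a differed by -2.45 ± 0.33, the Wnt inhibitor Sfrp2 by -2.22 ± 0.41, the opioid precursor Penk by -5.37 ± 0.95 and the transcription factor Foxp2 by -1.43 ± 0.24. Penk in mesenchyme was at 82.7, 92.7 and 109 CPM in Id2KO against 40.6, 56.3 and 25.3 CPM in wt cells.

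Genes of matrix and mesenchyme differed in the negative direction, with the fibrillar collagens Col5a2 by -4.55 ± 0.34, Col11a1 by -4.47 ± 0.58 and Col3a1 by -2.55 ± 0.48, the proteoglycan Dcn by -3.90 ± 0.63 and the mesothelial factor Wt1 by -6.72 ± 1.13. Dcn in mesenchyme was at 171, 148 and 217 CPM against 209.9, 144 and 96 CPM. Reads assigned to Esr1, the oestrogen receptor, differed by -4.59 ± 0.44, Amph, a protein of membrane curvature, by -6.08 ± 1.21, the imprinted zinc finger gene Plagl1 by -2.38 ± 0.32 and the neuronal surface protein Slitrk6 by -2.16 ± 0.22.

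Epithelial and metabolic genes differed in the positive direction, with Gpx2, a glutathione peroxidase of the gut, by 4.30 ± 0.88, Gclm, a subunit of glutathione synthesis, by 2.60 ± 0.27, the ectonucleotidase Enpp3 by 6.53 ± 0.58, the keratin Krt15 by 10.95 ± 2.02 and the calcium-binding protein Necab1 by 16.88 ± 2.90. The fitted values of Necab1, Krt15 and Wt1 rest on levels near 0 in at least 1 group and are no bounds.

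The embryonic globins differed by 2.22 ± 0.43 for Hbb-y, 2.02 ± 0.35 for Hba-x and 2.32 ± 0.39 for Hbb-bh1. Hbb-y stood at 30044, 12588 and 36132 CPM in Id2KO mesenchyme against 156559, 139810 and 126013 CPM in wt mesenchyme, and at 57.4, 50.3 and 65.2 CPM against 77.8, 84.8 and 96.8 CPM in EpCAM+ cells. The part of red cells in the mesenchymal values was not tested.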

How the results depend on the processing

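The EpCAM+ comparison called 251 genes. The count was 260 with RLE size factors, 278 without a filter, 255 with the replicate block and 798 by DESeq2 (376 higher, 422 lower). It was 119 with the compared groups alone and 141 with Xist as a covariate. Of the 251 genes 246, 240, 211, 251, 116 and 110 were called again, in that order. Leaving out 1 library gave 77 (without wt replicate 2) to 301 (without Id2KO replicate 2); it was 117 without wt replicate 1, 99 without wt replicate 3, 200 without Id2KO replicate 1 and 163 without Id2KO replicate 3. The difference between tissues called 93 genes, 83 with the replicate block, 82 with the block numbered within genotype, 366 by DESeq2, and 68 (without wt EpCAM+ replicate 3) to 142 (without Id2KO EpCAM+ replicate 2) with 1 library left out. Of the 66 named calls 20 held under all 13 alternatives, 61 under the replicate block, 33 with the compared groups alone, 37 without the libraries high in C1qa (which leaves 1 Id2KO library, assumed to vary like the others) and 36 with Xist as a covariate. The 8 terms named for the tissue difference, which were picked for their smallest p, held under their 17 alternatives. Of all 93 terms 61 were called again without wt EpCAM+ replicate 1, and 69 with the block numbered within genotype. None of the 66 named calls changed direction. With Xist as a covariate 3 Y-linked genes that were otherwise not called turned negative, at -5.79 for Ddx3y, -6.09 for Eif2s3y and -6.38 for Uty (log2). Groups of 3 libraries limit what could be called, and in simulated counts most 2-fold changes were missed. Copies near-identical to Rpl29, Rpl3 or H2-Bl can share reads with them.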

Other observations

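Some uncalled members of the lists had an SD among the 3 Id2KO libraries above the difference between the group means. Pdx1, the factor of duodenum and pancreas, was at 2.94, 42.4 and 23.7 CPM in Id2KO libraries against 3.11, 4.14 and 6.67 CPM in wt. The gut hormone gene Pyy reached 0.6, 48.1 and 0.0829 CPM against 0.317, 0.251 and 0 CPM, so that Id2KO replicate 2 stood far above the other two. Dlk1, an imprinted inhibitor of Notch signalling, was at 206, 616 and 226 CPM against 161, 106 and 129 CPM, again highest in Id2KO replicate 2. Ankrd1, a target of YAP, was at 21.2, 1.62 and 5.75 CPM against 0.95, 2.04 and 0.848 CPM and was highest in Id2KO replicate 1. None of these 4 genes was called.

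Gt(ROSA)26Sor, the RNA of the Rosa26 locus, into which transgenes are often placed, was picked after its values were seen. It was at 109, 68.5 and 102 CPM in Id2KO EpCAM+ cells against 23.4, 31.9 and 39.8 CPM in wt, without overlap (edgeR adjusted p = 0.014), and at 108 ± 36.2 CPM against 39.0 ± 7.12 CPM (SD, n = 3 each) in mesenchyme, where it was not called (log2 fold change 1.13 ± 0.31, adjusted p = 0.17). Its value with single libraries left out was not computed for this gene.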
